A study of Mus musculus with 89 samples.

Results

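The genes of Bmp (bone morphogenetic protein) signalling and the Id genes were followed here as 9 genes out of 54146 gene rows, each chosen by its symbol and each found in 1 row. They are the ligand Bmp4, the type I receptor Bmpr1a, the signal-carrying Smads Smad1 and Smad5, the inhibitory Smad6, and the target genes Id1, Id2, Id3 and Id4. All 9 passed the filter on low counts in every fit. The question was whether their mRNA differed between serum-containing and serum-free culture, and whether it changed when the nuclear receptors Esrrb and Nr5a2 were lost. RNA-seq of mouse embryonic stem cells (ESCs) gave 20 libraries in 8 groups, 4 states in each of 2 media.

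Every library came from EKOiE cells, in which the endogenous Esrrb gene is knocked out and Esrrb is made from a transgene that doxycycline (Dox) switches on. The +E+N state is EKOiE cells given Dox at 1 µg/ml, and the −E state is the same cells 2 days after Dox was withdrawn. The −N state is EKOiE NrKO cells, in which both alleles of Nr5a2 are also disrupted, with Dox. The −E−N state is EKOiE NrKO cells 2 days after Dox was withdrawn. In FCS/LIF, medium with fetal calf serum and the cytokine LIF, each state had 2 replicates, and in 2i/LIF, medium with inhibitors of MEK and GSK3 and LIF but no serum, each state had 3. The NrKO cells are a clonal line, so the loss of Nr5a2 and the line cannot be told apart, and the same holds for the medium and the culture batch. Every library of the −E and −E−N states was without Dox and every other library had it. The loss of Esrrb and the withdrawal of Dox itself thus cannot be told apart either.

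Bmp ligands bind type I and type II receptors at the cell surface, and the activated type I receptor phosphorylates Smad1 and Smad5, which join Smad4 and enter the nucleus. The Id genes are direct targets of this signal. Their products are helix-loop-helix proteins without the basic region that touches DNA, and they hold E proteins and their partners off DNA. In ESCs, Bmp from serum is known to act with LIF to keep cells undifferentiated, in part through Id proteins, while 2i/LIF keeps them so without serum or added Bmp.

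In mm10 with the GENCODE annotation, all 9 are protein-coding genes. Bmp4 lies on chromosome 14 from 46383520 to 46390669 (minus strand) and Bmpr1a on the same chromosome from 34410734 to 34503341 (minus). Smad1 spans chromosome 8 from 79338395 to 79399518 (minus), Smad5 chromosome 13 from 56703010 to 56742377 (plus) and Smad6 chromosome 9 from 63953076 to 64022059 (minus). Id1 lies on chromosome 2 from 152736251 to 152737410 (plus), Id2 on chromosome 12 from 25093799 to 25097140 (minus), Id3 on chromosome 4 from 136143497 to 136145755 (plus) and Id4 on chromosome 13 from 48261228 to 48266026 (plus). The 4 Id genes thus stand on 4 different chromosomes. Bmp4, Bmpr1a and Id4 overlap genes on the opposite strand, and reads of the 2 strands cannot be told apart because no strand setting is stated for the counting. Over the 20 libraries Gm15222, antisense to Bmp4, had 225 counts against 3857 for Bmp4, Gm17110 had 55 against 48072 for Bmpr1a, and Gm49291 had 33 against 3902 for Id4.

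The promoters of Id2, Id3 and Id4 are shown because these Id genes passed in a comparison and have an entry among the promoters used. Each run is the window from 250 bases before to 50 after a start in RefSeq in GRCm38.p6, 5′ to 3′ on the strand of the gene. These starts are not those of the GENCODE coordinates above. By those coordinates the Id4 window ends before the gene begins, and the Id2 and Id3 windows lie inside the gene. Capitals mark GGCGCC, a GC-rich motif that Smad1 and Smad5 are known to bind, and AGAC or its reverse complement GTCT, the short Smad box. The windows are chr12:25096043-25096342 (minus) for Id2, chr4:136143572-136143871 (plus) for Id3 and chr13:48260866-48261165 (plus) for Id4.
Id2: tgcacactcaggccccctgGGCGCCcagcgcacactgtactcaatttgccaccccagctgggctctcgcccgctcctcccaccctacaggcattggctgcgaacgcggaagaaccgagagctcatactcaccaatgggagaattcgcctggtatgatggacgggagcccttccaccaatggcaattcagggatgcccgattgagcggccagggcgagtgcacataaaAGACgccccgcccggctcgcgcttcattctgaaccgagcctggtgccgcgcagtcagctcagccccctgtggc
Id3: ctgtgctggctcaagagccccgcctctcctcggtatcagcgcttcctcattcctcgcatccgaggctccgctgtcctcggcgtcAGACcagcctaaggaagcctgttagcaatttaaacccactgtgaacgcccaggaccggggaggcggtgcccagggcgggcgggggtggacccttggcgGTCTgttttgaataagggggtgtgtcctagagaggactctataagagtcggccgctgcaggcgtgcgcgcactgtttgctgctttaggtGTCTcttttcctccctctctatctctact
Id4: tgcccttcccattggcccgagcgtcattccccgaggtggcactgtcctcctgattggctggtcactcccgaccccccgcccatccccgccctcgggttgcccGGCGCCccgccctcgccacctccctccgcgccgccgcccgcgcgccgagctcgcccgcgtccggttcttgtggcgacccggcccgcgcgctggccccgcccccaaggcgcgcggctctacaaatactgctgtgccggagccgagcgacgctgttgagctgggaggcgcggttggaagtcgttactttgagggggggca

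GGCGCC was found in the windows of Id2 and Id4 and not in that of Id3, and 11.9% of 32851 RefSeq promoters of the same length hold it. The Smad box was found in those of Id2 and Id3 and not in that of Id4, and 88.0% of promoters hold it on either strand. AAGGTCA, the T form of the motif that Esrrb and Nr5a2 bind, was found on neither strand in any window of the 8 members with an entry. It was found in 4.72% of all promoters. The paper reports that Nr5a2 prefers C in place of this T, and the C form was not searched for. A match or its absence in these windows is a description of letters and was not tied to binding. Id1 passed as well but has no entry among the promoters used, so no window of it is shown.

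The library totals ranged from 36514172 to 45443379 counts in FCS/LIF and from 26653035 to 32526534 in 2i/LIF. Esrrb mRNA fell in −E cells in FCS/LIF from 271 and 352 CPM (counts per 1000000 counts of the library, scaled between libraries) to 74.2 and 65.1 CPM, a log2 change of -2.18. In 2i/LIF it went from 515, 608 and 604 CPM to 441, 433 and 380 CPM, a log2 change of -0.46 that did not pass the test (adjusted p = 0.116), while it ranged from 187 to 273 TPM (transcripts per 1000000) in +E+N and from 113 to 133 TPM in −E. These values are for the whole gene, and reads of the transgene and of the knocked-out locus were not separated. In −E−N cells Esrrb fell in both media, with log2 changes of -3.39 and -1.97. Counts of the whole Nr5a2 gene do not check its loss, since the NrKO alleles lack an exon and not the gene. The 7 ES cell markers were each at 20 counts or more in every library, and their summed level was 2230.54 to 2352.72 TPM in FCS/LIF +E+N and 1228.39 to 1405.59 TPM in FCS/LIF −E−N. In bulk RNA, fewer cells of a type and less RNA per cell cannot be told apart.

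Levels were compared between genes in TPM, which is per length. In +E+N cells in FCS/LIF the Id genes covered a wide span, with means of 69.3 ± 4.74 TPM for Id1, 55.2 ± 5.05 TPM for Id3, 23.0 ± 1.59 TPM for Id2 and 0.755 ± 0.262 TPM for Id4 (SD, n = 2). The upstream genes lay lower than Id1, Id2 and Id3, from 13.6 ± 0.742 TPM for Bmpr1a and 9.88 ± 1.34 TPM for Smad5 to 5.84 ± 0.834 TPM for Smad1, 5.19 ± 0.382 TPM for Bmp4 and 1.56 ± 0.148 TPM for Smad6. In 2i/LIF the order among the Id genes was different at its lower end, with means of 20.3 ± 3.46 TPM for Id1, 5.26 ± 1.92 TPM for Id3, 1.83 ± 0.820 TPM for Id4 and 1.08 ± 0.380 TPM for Id2 (SD, n = 3). The levels of Id2 and Id4 overlapped there.

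**Figure D1:**
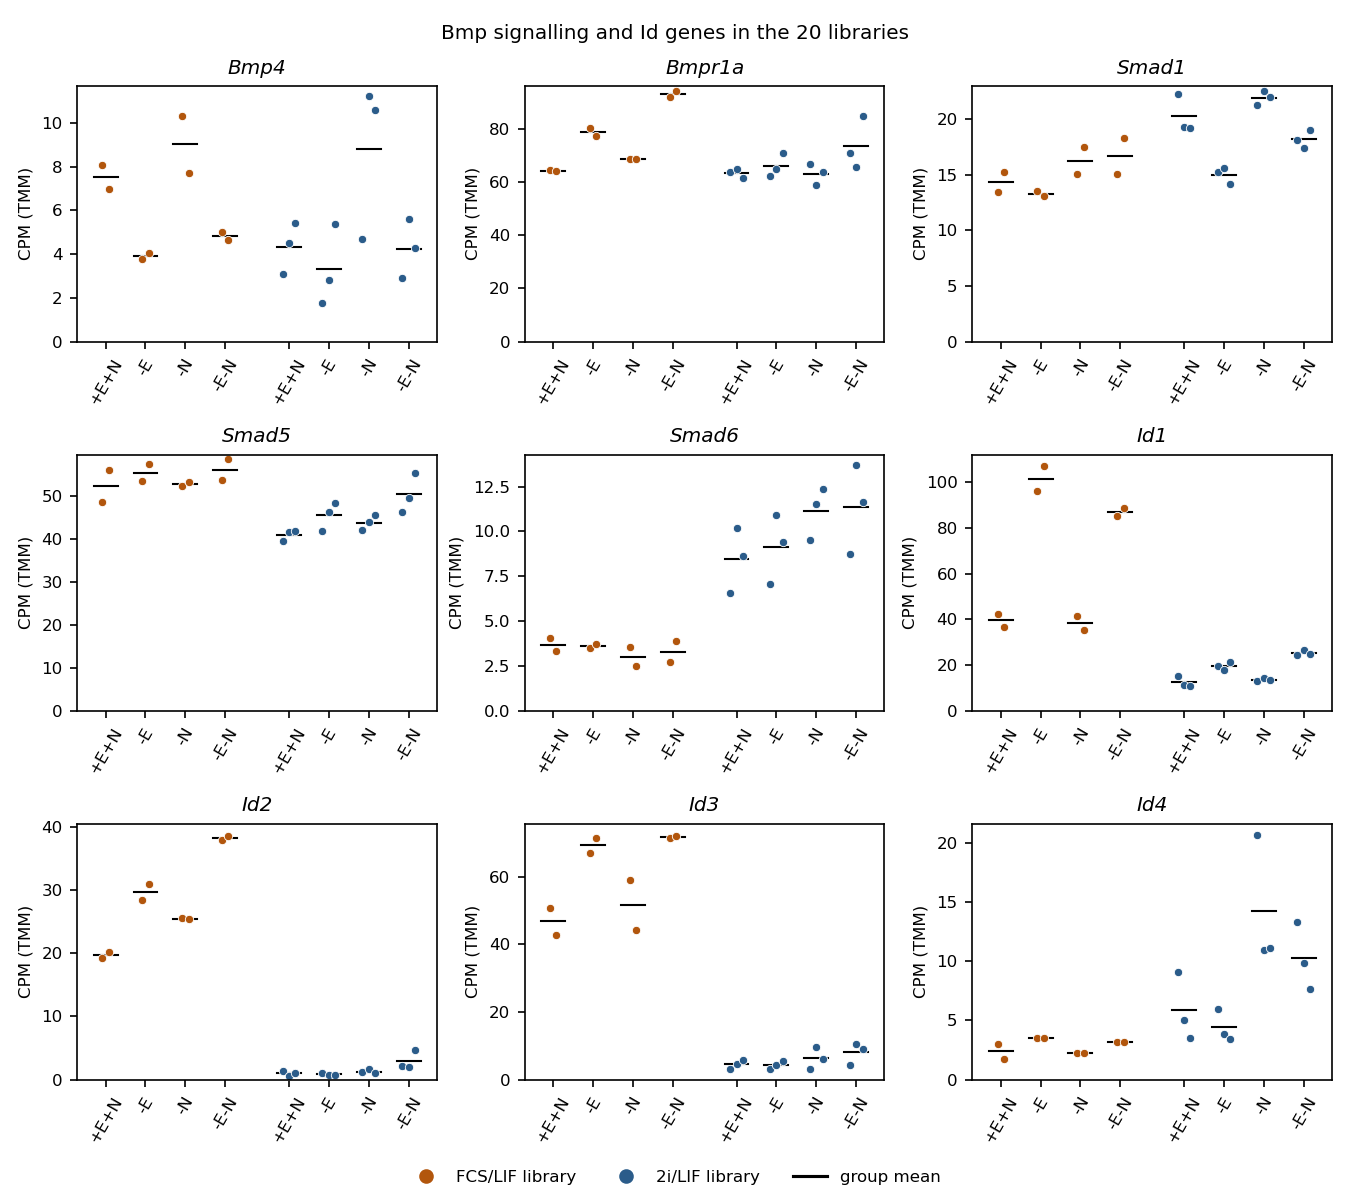
CPM of the 9 genes in each of the 20 libraries, by state and medium; each point is 1 library and each bar the mean of its group. Id1, Id2 and Id3 sit lower in every 2i/LIF library than in every FCS/LIF library, Id1 is higher in −E and −E−N than in +E+N in both media, and Smad6 is higher in 2i/LIF.

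The comparison of +E+N cells between the media asks how the pathway differed between FCS/LIF and 2i/LIF while both receptors were present. The media differ in serum, in the inhibitors of MEK and GSK3 and in the basal medium. The parts of these in a difference cannot be told apart. Id1, Id2 and Id3 were lower in 2i/LIF, while Id4 and Smad6 were higher, so that 5 of the 9 genes passed both limits (adjusted p under 0.01 and a fold over 1.5), against 34.7% of all 16147 genes tested. The groups did not overlap for 8 of the 9, against 74% of all genes. Unless another tool is named, p values for single genes come from the quasi-likelihood test of edgeR, adjusted by Benjamini-Hochberg over every gene in the fit. The median log2 change of the 9 was -0.35. The ligand, the receptor and the signal-carrying Smads were not among those called.

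Bmp4, the ligand, was counted at 8.07 and 6.99 CPM in FCS/LIF and at 3.08, 4.53 and 5.43 CPM in 2i/LIF. The groups did not overlap, but the log2 difference of -0.79 (95% interval -1.62 to 0.03, adjusted p = 0.0883) did not pass. Bmpr1a, a type I receptor for Bmp4, stood at 64.5 and 64.1 CPM against 63.8, 65.1 and 61.6 CPM. Its groups overlapped, with a log2 difference of -0.02 (95% interval -0.20 to 0.17). Smad1 was at 13.4 and 15.3 CPM in FCS/LIF and 22.3, 19.3 and 19.2 CPM in 2i/LIF, and Smad5 at 48.5 and 56.0 CPM against 39.5, 41.5 and 41.8 CPM. These partners stood apart in opposite directions, with log2 differences of 0.50 ± 0.107 (SE, adjusted p = 7.0e-04) for Smad1 and -0.35 ± 0.0850 (adjusted p = 0.0018) for Smad5, and neither reached the fold limit.

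Smad6, which blocks the receptor and Smad1 and is itself a Bmp target, was at 4.02 and 3.35 CPM in FCS/LIF and 6.55, 10.2 and 8.63 CPM in 2i/LIF. Every 2i/LIF library was above both FCS/LIF libraries, and the log2 difference was 1.20 ± 0.253 (SE, adjusted p = 6.1e-04), 2.29-fold higher. Without FCS/LIF +E+N replicate 2 the difference was 1.06 and did not pass (adjusted p = 0.0152). In 2i/LIF the libraries numbered 1 had the lowest level of their group in 4 of 4 states for Bmp4, Smad5, Smad6 and Id3, and the highest in 4 of 4 for Id4.

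Id1 had 42.2 and 36.8 CPM in FCS/LIF and 15.2, 11.0 and 10.9 CPM in 2i/LIF. No library overlapped, and Id1 fell by 1.67 ± 0.123 on the log2 scale (SE, adjusted p = 6.3e-09), a 3.19-fold difference. Id2 had 19.2 and 20.1 CPM against 1.35, 0.594 and 1.01 CPM, the last 3 resting on 42, 16 and 29 counts. Id2 fell by 4.30 ± 0.294 on the log2 scale (SE, 95% interval -4.92 to -3.68, adjusted p = 2.6e-09), 19.7-fold, the largest difference among the 9 genes. Id3 went from 50.8 and 42.6 CPM to 3.14, 4.57 and 5.78 CPM, and fell by 3.38 ± 0.346 on the log2 scale (SE, adjusted p = 3.1e-07), 10.4-fold. These 3 calls were kept without any 1 library.

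Id4 went the other way, from 3.03 and 1.74 CPM in FCS/LIF to 9.05, 5.05 and 3.55 CPM in 2i/LIF. The groups did not overlap, though the lowest 2i/LIF library lay close to the higher FCS/LIF library, and the log2 difference was 1.31 ± 0.395 (SE, 95% interval 0.48 to 2.14, adjusted p = 0.00864). The call was kept without 2i/LIF +E+N replicate 3 (1.57) and lost without each of the other 4 libraries (0.85 to 1.74). It was also lost with the size factors of DESeq2 (1.28, adjusted p = 0.0105) and with limma on TPM (0.66, adjusted p = 0.0261). The summed level of the 6 mesoderm markers was 2.23 to 2.79 TPM in FCS/LIF and 14.64 to 17.09 TPM in 2i/LIF, and that of the 6 trophectoderm markers 51.53 to 56.46 TPM against 2.64 to 2.88 TPM. Of the mesoderm markers, 2 of 6 in FCS/LIF and 3 of 6 in 2i/LIF were at 20 counts or more in every +E+N library. For the trophectoderm markers it was 5 and 3 of 6. A summed level can rest on few genes and does not count cells. Whether cells of these types had a part in the differences between media was not tested.

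**Figure D2:**
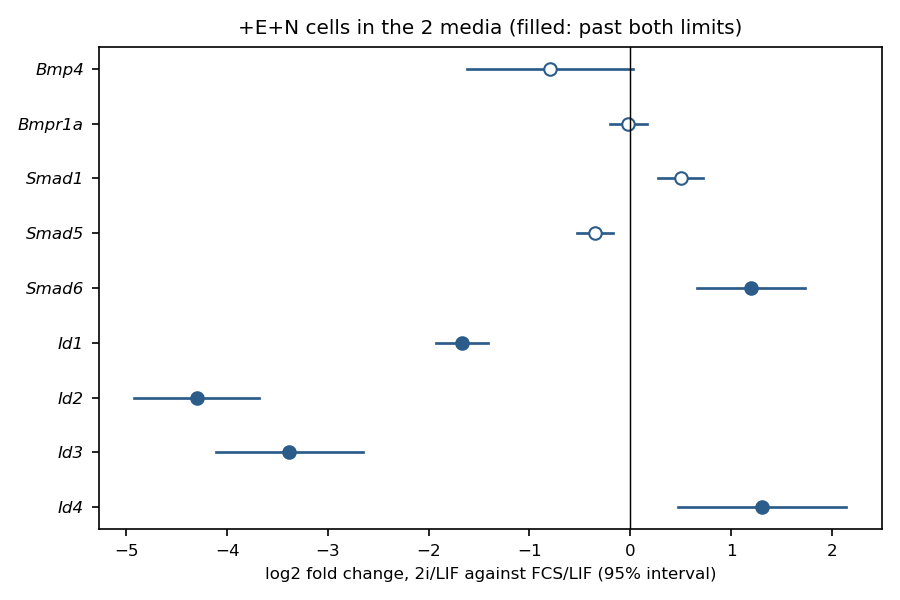
log2 fold change of each gene in +E+N cells, 2i/LIF (n = 3) against FCS/LIF (n = 2), with 95% intervals; filled points passed both limits. Id2 (-4.30), Id3 (-3.38) and Id1 (-1.67) lie left of 0, Id4 (1.31) and Smad6 (1.20) right of it, and Bmpr1a sits at -0.02.

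The loss comparisons in FCS/LIF ask which of these genes differed from +E+N in the states without Esrrb, without Nr5a2 or without both. The 3 comparisons share the +E+N libraries. Loss of Esrrb alone raised Id1 and lowered Bmp4, so 2 of 9 passed, against 5.76% of 15636 genes. With loss of both, Id1, Id2 and Id3 rose and 3 of 9 passed, against 18.8%. Loss of Nr5a2 alone gave 0 of 9 with edgeR, against 0.173%, with 1 gene at an unadjusted p under 0.05 and 0 calls by DESeq2 or by limma on TPM. For the −E, −N and −E−N states the median log2 change of the 9 was 0.28, 0.08 and 0.40, where the medians over all genes tested lay within 0.021 of 0. The groups did not overlap for 6, 2 and 6 of the 9 genes, against 63.3%, 41.2% and 74% of all genes.

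Id1 rose from 42.2 and 36.8 CPM in +E+N to 96.1 and 107 CPM in −E and to 85.3 and 88.9 CPM in −E−N, while −N stood at 41.4 and 35.4 CPM. Both states without Esrrb lay far above both states with it, and −N overlapped +E+N. The log2 change was 1.35 ± 0.0964 in −E (SE, adjusted p = 5.5e-05), 2.54-fold, and 1.12 ± 0.0964 in −E−N (adjusted p = 3.9e-05), 2.18-fold. In −N it was -0.06 (95% interval -0.28 to 0.16).

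Id2 stood at 19.2 and 20.1 CPM in +E+N, 28.4 and 31.0 CPM in −E, 25.6 and 25.4 CPM in −N and 37.9 and 38.6 CPM in −E−N. No 2 of these states overlapped, and the order was +E+N, −N, −E and −E−N from low to high. Id2 rose in −E−N, with a log2 change of 0.94 ± 0.0726 (SE, adjusted p = 2.3e-05), 1.92-fold. In −E the change of 0.58 (adjusted p = 0.00103) was 1.49-fold and just under the fold limit, and in −N it was 0.35 (adjusted p = 0.0497).

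Id3 had 50.8 and 42.6 CPM in +E+N, 67.0 and 71.4 CPM in −E, 58.9 and 44.1 CPM in −N and 71.5 and 72.1 CPM in −E−N. Both states without Esrrb lay above the states with it. Id3 rose in −E−N by a log2 change of 0.60 ± 0.128 (SE, adjusted p = 0.00467), 1.52-fold, a call that was kept in 1 of the 4 fits that left out a library. In −E its change of 0.55 (adjusted p = 0.0179) did not pass with edgeR. With limma on log2(TPM + 1), both Id3 (0.67, adjusted p = 0.00947) and Id2 (0.67, adjusted p = 0.00166) passed in −E. On that scale the median over all genes in −E was itself 0.0899. Id4, at 3.03 and 1.74 CPM in +E+N, 3.54 and 3.52 CPM in −E, 2.26 and 2.20 CPM in −N and 3.18 and 3.19 CPM in −E−N, did not pass in any of them, with log2 changes of 0.55, -0.11 and 0.40.

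Bmp4 had 8.07 and 6.99 CPM in +E+N, 3.77 and 4.05 CPM in −E, 10.3 and 7.72 CPM in −N and 5.02 and 4.64 CPM in −E−N. The states without Esrrb lay below those with it. Bmp4 fell by 0.96 ± 0.170 on the log2 scale in −E (SE, adjusted p = 0.0051), 1.95-fold, and this call was lost when any 1 of the 4 libraries was left out (log2 -1.06 to -0.85). In −E−N the change of -0.66 (adjusted p = 0.0113) did not pass with edgeR and passed with DESeq2 (adjusted p = 0.00616).

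The TPM values of Bmp4 gave another picture. Bmp4 had 5.46 and 4.92 TPM in +E+N, 2.92 and 3.06 TPM in −E, 7.35 and 9.81 TPM in −N and 4.01 and 9.22 TPM in −E−N, so that −E−N overlapped +E+N. On log2(TPM + 1) with limma the −E difference was -0.63 (adjusted p = 0.19) and the −E−N difference turned to 0.21, where the median over all genes was 0.127. The ratio of TPM to CPM, which reflects the transcript length that RSEM assigned to a gene in each library, varied 3.19-fold for Bmp4 over the 20 libraries (0.687 to 2.19) and at most 1.20-fold for each of the other 8 genes. What made it vary was not tested.

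**Figure D3:**
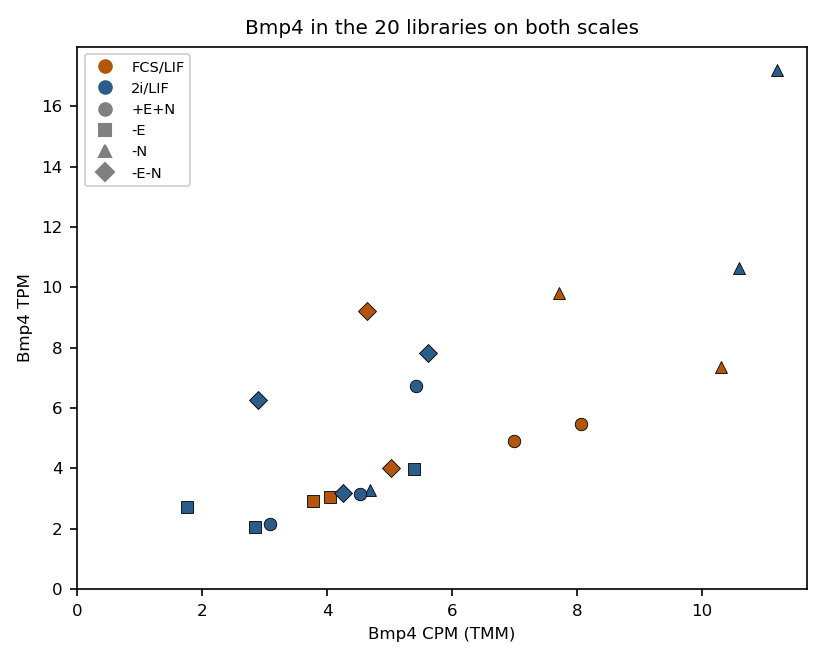
TPM of Bmp4 against its CPM in the 20 libraries, by state and medium; each point is 1 library. The points do not follow 1 line, and libraries of 1 state with nearly the same CPM, such as FCS/LIF −E−N at 5.02 and 4.64 CPM, lie at 4.01 and 9.22 TPM.

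Bmpr1a was the upstream gene with the tightest replicates. It had 64.5 and 64.1 CPM in +E+N, 80.3 and 77.3 CPM in −E, 68.8 and 68.8 CPM in −N and 92.1 and 94.4 CPM in −E−N. The states did not overlap, yet the log2 changes of 0.28 ± 0.0530 in −E (SE, adjusted p = 0.00764) and 0.52 ± 0.0530 in −E−N (adjusted p = 9.98e-05) were 1.21-fold and 1.43-fold, both under the fold limit. Smad1, Smad5 and Smad6 overlapped +E+N in every state of FCS/LIF, with log2 changes from -0.13 to 0.20 for Smad1, -0.01 to 0.08 for Smad5 and -0.32 to -0.04 for Smad6. In the same libraries the summed level of the 7 primitive endoderm markers was 10.73 to 15.23 TPM in +E+N and 24.76 to 26.99 TPM in −E−N, that of the 6 trophectoderm markers 51.53 to 56.46 TPM and 130.1 to 169.19 TPM, and that of the 5 neural markers 18.08 to 24.11 TPM and 46.16 to 47.59 TPM. Their part in the changes of Id1, Id2 and Id3 was not tested.

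In 2i/LIF the same comparisons were made from lower Id levels. Loss of Esrrb alone raised Id1, the 1 call among 9 genes, against 1.55% of 14355 genes. Loss of both raised Id1 and Id2, 2 of 9, against 18.6%. Of these 2 calls, that of Id2 had under 20 counts in a +E+N library and passed the filter on low counts through other states. Loss of Nr5a2 alone gave 0 of 9 with edgeR, against 3.65%, with 2 genes at an unadjusted p under 0.05, 1 call by DESeq2, 0 by limma on TPM and 2 with a replicate block, a term for the replicate number. For −E, −N and −E−N the median log2 change of the 9 was -0.07, 0.36 and 0.44, and the groups did not overlap for 3, 2 and 5 of them, against 24.8%, 32.2% and 52.4% of all genes.

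Id1 had 15.2, 11.0 and 10.9 CPM in +E+N, 19.6, 17.6 and 21.3 CPM in −E, 12.8, 14.1 and 13.5 CPM in −N and 24.5, 26.6 and 24.7 CPM in −E−N. As in serum, both states without Esrrb lay above both with it. The log2 change was 0.66 ± 0.126 in −E (SE, adjusted p = 0.00937), 1.58-fold, and 1.04 ± 0.126 in −E−N (adjusted p = 4.0e-05), 2.06-fold. The −E call was kept without +E+N replicate 1 (0.83) and lost without any 1 of the other 5 libraries, while the −E−N call was kept in all 6.

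Id2 was close to its lower limit in 2i/LIF, with 1.35, 0.594 and 1.01 CPM in +E+N, 1.00, 0.791 and 0.796 CPM in −E, 1.12, 1.70 and 1.01 CPM in −N and 2.10, 2.01 and 4.63 CPM in −E−N. Only −E−N lay clear of the rest, on 64, 57 and 137 counts. Id2 rose there by a log2 change of 1.57 ± 0.382 (SE, 95% interval 0.74 to 2.40, adjusted p = 0.00563), 2.97-fold. The call was lost without +E+N replicate 2, +E+N replicate 3 or −E−N replicate 3, and without the last the log2 change was 1.06.

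Id3 had 3.14, 4.57 and 5.78 CPM in +E+N, 3.18, 4.24 and 5.36 CPM in −E, 3.12, 9.55 and 6.06 CPM in −N and 4.43, 10.5 and 9.09 CPM in −E−N. The states overlapped and the log2 change of 0.85 in −E−N (adjusted p = 0.111) did not pass without the replicate block. With the block it passed (0.80, adjusted p = 0.00567). Id4 had 9.05, 5.05 and 3.55 CPM in +E+N, 6.00, 3.85 and 3.39 CPM in −E, 20.6, 11.0 and 11.1 CPM in −N and 13.3, 9.85 and 7.64 CPM in −E−N. Its −N libraries lay above all of +E+N, with a log2 change of 1.26 (95% interval 0.49 to 2.04, adjusted p = 0.0412), 2.40-fold. This did not pass without the block and passed with it (1.29, adjusted p = 2.4e-05). Its −E−N libraries overlapped +E+N. The change of 0.81 there (adjusted p = 0.088) did not pass without the block and passed with it (0.87, adjusted p = 1.3e-04). The −E−N library numbered 2 did not deviate together with its +E+N partner (correlation -0.0126).

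Among the upstream genes in 2i/LIF, Bmp4 had 3.08, 4.53 and 5.43 CPM in +E+N, 1.75, 2.84 and 5.40 CPM in −E, 4.68, 11.2 and 10.6 CPM in −N and 2.89, 5.61 and 4.26 CPM in −E−N. These groups overlapped, and the log2 change of 1.02 in −N (adjusted p = 0.147) did not pass, though with the replicate block it did (0.97, adjusted p = 0.00537). Smad1 was at 22.3, 19.3 and 19.2 CPM in +E+N and 15.3, 15.6 and 14.2 CPM in −E, apart and lower, with a log2 change of -0.43 (adjusted p = 0.0124). Smad5 was at 39.5, 41.5 and 41.8 CPM in +E+N and 46.2, 49.4 and 55.3 CPM in −E−N, apart and higher, with a log2 change of 0.31 (adjusted p = 0.00773) that was 1.24-fold. Bmpr1a and Smad6 did not pass in any state, with log2 changes from -0.01 to 0.23 and from 0.11 to 0.44.

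The summed level of the trophectoderm markers in 2i/LIF was 2.64 to 2.88 TPM in +E+N and 35.89 to 54.67 TPM in −E−N, with 3 and 4 of the 6 at 20 counts or more in every library of the state, and that of the ES cell markers 2491.41 to 2716.11 TPM and 1296.79 to 1732.73 TPM. The part of such cells in the changes of Id1 and Id2 was not tested.

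**Figure D4:**
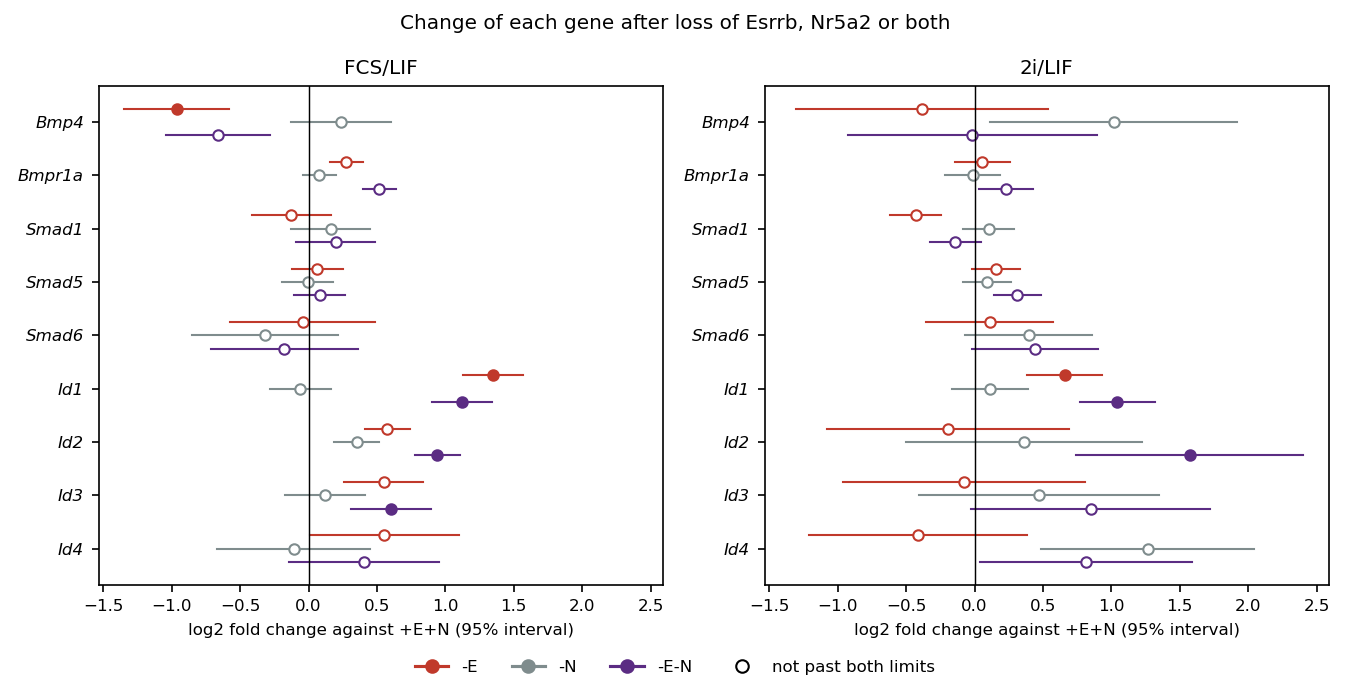
log2 fold change of each gene in −E, −N and −E−N against +E+N, with 95% intervals, in FCS/LIF (n = 2 per state) and 2i/LIF (n = 3); filled points passed both limits. Id1 is right of 0 in −E and −E−N in both media, at 1.35 and 1.12 in FCS/LIF and 0.66 and 1.04 in 2i/LIF, and every −N point is open.

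Whether the effect of losing both receptors differed from the sum of the single losses was tested by an interaction, for which an adjusted p below 0.01 was enough whatever its size. With edgeR it was called for 0 of 9 genes in FCS/LIF, against 0.032% of all genes, with 0 at an unadjusted p under 0.05, and for 0 of 9 in 2i/LIF, against 0.307%, with 1. DESeq2 and limma on TPM also gave 0 in both media. The gene at an unadjusted p under 0.05 was Id2 in 2i/LIF, at 1.40 on the log2 scale (95% interval 0.20 to 2.61, adjusted p = 0.276). For Id1 the interaction was -0.16 (95% interval -0.47 to 0.14) in FCS/LIF and 0.27 (-0.12 to 0.66) in 2i/LIF.

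Whether a response differed between the media was tested as the log2 change in FCS/LIF minus that in 2i/LIF. In −E it was called for 0 of 9 genes with edgeR, against 1.06%, with 2 at an unadjusted p under 0.05, and for 1 by DESeq2 and 1 by limma on TPM. The response of Id1 was larger in FCS/LIF by 0.71 ± 0.173 (SE, 95% interval 0.34 to 1.07, adjusted p = 0.0315). In −N it was called for 0 of 9, against 0.743%, with 1 at an unadjusted p under 0.05, Id4 (-1.36, adjusted p = 0.218). In −E−N it was called for 0 of 9, against 13.2%, with 2 at an unadjusted p under 0.05, and Id1 differed by 0.11 (95% interval -0.25 to 0.48). DESeq2 and limma also gave 0 in these 2 comparisons. In −N, however, Id4 passed with edgeR without the filter on low counts (-1.38, adjusted p = 9.5e-04) and with the replicate block (-1.37, adjusted p = 0.00299). Over the 8 groups, Id1 was ordered from −E, −E−N, +E+N and −N in FCS/LIF to −E−N, −E, −N and +E+N in 2i/LIF, and the neighbours +E+N and −N overlapped in both media.

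The rest of the pathway was followed by a list of 54 genes, of which 44 passed the filter in FCS/LIF and in the fit of all libraries and 37 in 2i/LIF. Between the media, 21 of 44 passed, 7 higher and 14 lower in 2i/LIF, with a median log2 change of -0.26, against 17.2% higher and 17.5% lower among all genes. Of the 21, 4 had under 20 counts in an FCS/LIF +E+N library. Among ligands, Bmp8b (-4.66) and Bmp6 (-2.40) were lower in 2i/LIF and Bmp7 (1.15) was higher. The co-receptor Rgma, which helps Bmp ligands bind, was higher (3.81), as was Smad9 (3.42), the third Bmp-activated Smad. Bmpr1b, another type I receptor, had 27 to 30 counts in FCS/LIF and 0 in each 2i/LIF library, and was at least 6.35-fold lower against a floor of 3 counts per library. The secreted antagonists Nbl1 (-3.85) and Bmper (-3.34, from 42 to 86 counts down to 2 to 6) were lower. Grem1, an antagonist too, had 10 to 23 counts in FCS/LIF against 0 to 1 in 2i/LIF, and the ligand Gdf6 had 11 to 17 against 0 to 2. The targets Gata3 (-2.23), Gata2 (-2.04) and Hey1 (-1.45) were lower as well, and the E protein Tcf4 (1.39), a partner that Id proteins bind, was higher.

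In FCS/LIF, 9 of 44 genes passed in −E, 8 higher and 1 lower, and 21 in −E−N, 20 higher and 1 lower, with medians of 0.27 and 0.66. Among all genes the shares were 3.23% higher and 2.53% lower in −E, and 12.4% and 6.4% in −E−N, where 65.9% of the calls were higher, or 77.3% on TPM. In −N, 0 passed with edgeR, 11 were at an unadjusted p under 0.05, and 4 passed with DESeq2. Of the calls, 2 in −E and 4 in −E−N, all higher, had under 20 counts in a +E+N library and passed the filter on low counts through other states, so the counts and medians over the list are a description only. The ligands Bmp2 (2.68, from 9 to 10 counts up to 47 to 73) and Gdf6 (2.31, from 11 to 17 up to 57 to 79) rose in −E−N, as did the co-receptors Rgma (1.45) and Rgmb (1.38) and the receptors Acvrl1 (1.10) and Acvr1 (0.75). Secreted antagonists made up 6 of the 21, among them Nbl1 (2.03), Fst (1.85) and Fstl3 (1.70). The targets Msx1 (2.83), Gata2 (2.64), Msx2 (2.13) and Gata3 (1.91) rose, and Tfap2a fell by 1.45. None of the 3 other Smads, the 5 intracellular inhibitors and the 3 E proteins passed in −E−N. In −E the calls included Msx1 (2.75), Bmp2 (1.82), Grem1 (1.62), Fst (1.40) and Rgmb (0.85). Gata3 is also among the trophectoderm markers.

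In 2i/LIF, 2 of 37 genes passed in −E (both lower), 3 in −N (all higher) and 14 in −E−N, 9 higher and 5 lower, with medians of -0.07, 0.08 and 0.13. The shares of all genes were 0.439% higher and 1.11% lower in −E, 1.61% higher and 2.04% lower in −N, and 9.06% higher and 9.56% lower in −E−N. Of the genes called higher, 1 in −N and 2 in −E−N had under 20 counts in a +E+N library and passed the filter on low counts through other states. The counts and medians over the list are thus a description only. With the replicate block 5 passed in −E and 5 in −N. In −E, the antiproliferative Smad inhibitor Tob1 fell by 0.77 and Tfap2a by 1.27. In −N, Gata2 (3.36), Bmp8b (2.60) and Fstl1 (1.76) rose. In −E−N, Gata2 (4.86), Msx1 (4.14) and Gata3 (1.47) rose together with Bmp8b (3.35), Fst (2.38), Fstl1 (1.83), Rgma (1.66) and the E protein Tcf12 (1.02). Smad9 fell by 1.60, Smad7, the other inhibitory Smad, by 1.37, and Tob1 by 1.20.

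Id2 and Id3 had nearly the same pattern over the 8 group means of log2 CPM (Pearson r = 0.996), and Id1 was close to both (0.913 with Id2, 0.914 with Id3), whereas Id4 ran opposite to Id3 (-0.72) and alongside Smad6 (0.886). These are descriptions over 8 points that share the step between the media. Among 11738 genes, those most like Id1 were Fam212b (0.993), Zbtb40 and Ptpn13. For Id2 they were Fbxw17, Acvr2b and Sec24b (each 0.998), and for Id3 Kctd12b, Cacna1b and Sec24b (each 0.999). Id4 was closest to Xpo6 (0.984) and Primpol. Smad6 was closest to Lipc (0.998), Rpl10a-ps1 and Spice1, Smad5 to Rimbp2, Zfp869 and Lrif1 (each 0.993), Smad1 to Srgap1 (0.964), Reep4 and Fah, Bmpr1a to Fbxo34 (0.983), Ebag9 and Npnt, and Bmp4 to Strn4 (0.957), Setd5 and Comtd1.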

How the data were processed

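RNA-seq libraries of mouse ESCs (20 of 89 samples) were used, and 69 ChIP-seq samples were not analysed here. Paired-end reads from stranded libraries were mapped by the authors with STAR (mm10), who deposited estimated counts per gene from RSEM, given as whole numbers, and TPM values from RSEM. Tool versions and the annotation they used are not given in the sources used here. Spike-in rows (92, with 0 counts) were left out, and 0 columns belonged to other series. Depth was 26653035 to 45443379 counts per library. No same-group libraries agreed within sampling noise.

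The 4 states of each medium were fitted with edgeR 4.0.16 in R 4.3.3 (TMM, quasi-likelihood test) keeping each gene that reached 20 counts in all replicates of some state (15636 in FCS/LIF, 14355 in 2i/LIF). All 20 libraries were fitted as 8 groups (16147 genes) to compare the media and the responses. A call needed a Benjamini-Hochberg adjusted p below 0.01 and a fold over 1.5, and interactions and differences of responses needed the adjusted p alone. CPM is the count divided by the TMM-scaled library total, times 1e+06. The steps were tested on simulated data. The study's legends call the replicates independent experiments. In 2i/LIF, every same-numbered pair of +E+N with −E or −N libraries deviated together (correlations 0.170 to 0.572), so for these comparisons the fit with a replicate block is given where it changed a call. This was decided with the blocked results known. In 1 pair of +E+N with −E−N the correlation was -0.0126, and FCS/LIF has 2 pairs. For 2i/LIF −E−N the fit with the block is given beside Id3 and Id4, whose calls it changed.

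Alternatives were DESeq2 1.42.0, DESeq2's size factors in edgeR, no filter (at least 1 count), limma 3.58.1 on log2(TPM + 1), the replicate number as a block, and leaving out each library. The members, the pathway list and the markers were chosen with earlier results of these data known. All 9 members are named. From the pathway list, up to 4 called genes per role with the largest change were named in each comparison. Up to 3 genes most like each member were taken among those with a mean of at least 100 counts. A few genes that these rules name are left out of the text. Promoters are from RefSeq, and protein sequences were not used here.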

Additional observations from a re-analysis of the deposited data

Results flagged for a closer look

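No member passed the test of a difference in response between the media or of an interaction, and no group had 4 libraries or more, so none could be examined for a library far from the rest. In the pathway list, 12 such tests passed (quasi-likelihood test of edgeR, adjusted by Benjamini-Hochberg, each group of 2 or 3 libraries). The difference of responses between the media passed for 2 of 44 genes in −E, against 1.06% of all genes. In −N it passed for 0 of 44, against 0.743%, and in −E−N for 9 of 44, against 13.2%. The interaction passed for 1 of 37 genes in 2i/LIF, against 0.307%, and for 0 of 44 in FCS/LIF, against 0.032%. The 12 are given as FCS/LIF minus 2i/LIF on the log2 scale unless stated otherwise, and their causes were not tested.

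Fst, follistatin, which binds activins and some Bmp ligands, changed by 2.38 in 2i/LIF −E−N against -0.10 in −E and 0.39 in −N, an interaction of 2.08 (adjusted p = 0.00611). In response to −E, Fst differed by 1.52 between the media (adjusted p = 0.00613), with log2 changes of 1.40 in FCS/LIF and -0.10 in 2i/LIF. The co-receptor Rgmb differed by 0.96 in −E (adjusted p = 0.0042) and by 1.21 in −E−N (adjusted p = 6.3e-05), with log2 changes of 0.85 and 1.38 in FCS/LIF and of -0.09 and 0.20 in 2i/LIF.

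In response to −E−N the receptors Bmpr2 and Acvr1 differed by 0.96 (adjusted p = 0.00315) and 1.04 (adjusted p = 0.00409). The inhibitory Smad7 differed by 1.48 (adjusted p = 4.6e-05), Twsg1 by 1.02 (adjusted p = 0.00314) and Tob1 by 1.01 (adjusted p = 7.8e-04), each having fallen in 2i/LIF (-1.37, -0.61 and -1.20). Msx2 differed by 2.13 (adjusted p = 5.7e-04), with a log2 change of 2.13 in FCS/LIF and 0.03 in 2i/LIF. Bmp8b and Gata2 differed the other way, by -2.22 (adjusted p = 0.00529) and -2.20 (adjusted p = 0.00401), rising in both media and more in 2i/LIF. Of the list genes called higher in −E−N, 4 in FCS/LIF and 2 in 2i/LIF had under 20 counts in a +E+N library. They passed the filter on low counts through other states, and a difference for such a gene is a description only.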

How the results depend on the processing

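Counts of members called that moved by over 1.5 times were in 2i/LIF −N 1 with DESeq2, 1 without the filter and 2 with the replicate block, against 0, in 2i/LIF −E 0 with limma on TPM, against 1, and in 2i/LIF −E−N 4 with the replicate block, against 2. For the response to −E the count was 1 with DESeq2, without the filter and with limma, and for −N 1 without the filter and with the replicate block, each against 0. In the pathway list, FCS/LIF −N gave 4, 6 and 4 with DESeq2, no filter and the replicate block, against 0, 2i/LIF −E gave 4, 5 and 5, against 2, and 2i/LIF −N gave 5 with the block, against 3. Smaller shifts of the member counts were 3 with limma in FCS/LIF −E, against 2, 4 with DESeq2, no filter, limma and the block in FCS/LIF −E−N, against 3, and between the media 4 with the size factors of DESeq2 and with limma and 6 with no filter and the block, against 5. The value that changed direction was that of Bmp4 in FCS/LIF −E−N, 0.21 with limma on TPM. The cause of these shifts was not tested.

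Without each library in turn, members called ranged from 1 to 2 in FCS/LIF −E, 0 to 1 in 2i/LIF −E, 1 to 2 in 2i/LIF −E−N, 3 to 5 between the media and 0 to 1 for the response to −E−N (Bmpr1a at 0.43 without 2i/LIF −E−N replicate 3). The pathway list ranged from 13 to 23 in FCS/LIF −E−N (13 without −E−N replicate 2, 14 without +E+N replicate 1) and 0 to 2 in 2i/LIF −E.

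Same-numbered libraries did not all deviate together in FCS/LIF (correlations 0.0361 to 0.360) or over all states of 2i/LIF (-0.0126 to 0.572). With the block, members newly called were Bmp4 (0.97) and Id4 (1.29) in 2i/LIF −N, Id3 (0.80) and Id4 (0.87) in 2i/LIF −E−N, Bmp4 in FCS/LIF −E−N (-0.66) and between the media (-1.03), and Id4 in the response to −N (-1.37). Over all genes, calls in FCS/LIF −N went from 27 to 264, 548, 9 and 305 with DESeq2, no filter, limma and the block, in 2i/LIF −E from 223 to 447, 401, 136 and 596, in 2i/LIF −N from 524 to 860, 828, 313 and 1115, in the response to −E from 171 to 532, 706, 280 and 728, in the response to −N from 120 to 456, 809, 70 and 686, and for the interaction from 5 to 63, 242, 2 and 40 in FCS/LIF and from 44 to 303, 212, 11 and 324 in 2i/LIF. In FCS/LIF −E they went from 901 to 1631 with no filter and 553 with limma, and in the response to −E−N from 2136 to 3703 with the block. On TPM the median over all genes shifted to 0.0899 in FCS/LIF −E and 0.127 in FCS/LIF −E−N, and to 0.11 and 0.12 in the responses to −E and −E−N.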

Other observations

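The E proteins, the partners that Id proteins hold off DNA, were counted beside the Id genes. Of Tcf3, Tcf4 and Tcf12, none passed in any state in FCS/LIF with edgeR, Tcf12 rose in 2i/LIF −E−N (1.02) and Tcf4 was higher in 2i/LIF than in FCS/LIF (1.39).

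The comparisons of the media rest on 2 libraries in FCS/LIF and 3 in 2i/LIF. Id2 in 2i/LIF rests on 16 to 137 counts per library, and its changes there carry wide intervals. Of 83 member values that passed in no setting, 36 changed sign in some setting. mRNA levels do not show Smad phosphorylation or ligand activity, which were not analysed here.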
